A study of Mus musculus with 4 samples.

Results

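The red cell membrane skeleton genes described here are Sptb, Ank1, Slc4a1, Epb42, Epb41, Add1, Add2, Dmtn and Tmod1, 9 of the 34614 protein-coding and long non-coding genes that were placed on the mouse genome. They were chosen by name, with earlier results of these data known. A listed cytosine was counted for a gene if it lay inside its GRCm38 gene body or within 2 kb of either end. By this rule 34 of the 53206 cytosines of the 5-methylcytosine (5mC) table and 63 of the 71864 cytosines of the 5-hydroxymethylcytosine (5hmC) table belonged to them. The study compared Hdac6 knockout mice with wild-type mice in LSK cells, the marrow cells that lack lineage markers and carry c-Kit and much Sca-1, among which blood stem cells and their early progeny are found. There were 4 groups of 1 library each. Knockout 5mC and wild-type 5mC were by whole-genome bisulfite sequencing, and knockout 5hmC and wild-type 5hmC by oxidative bisulfite sequencing. These marks are the submitters' names for the groups. How the levels were computed from the libraries is not known, so a level called 5mC here may include 5hmC. Strain, sex, age, the deleted part of Hdac6 and whether a library pooled several animals are not stated in the labels. With 1 library a group there is no spread between animals, so every difference below compares libraries, carries no replicate check and has no p-value other than the one in the authors' deposited table.

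The membrane of the red cell is held by a mesh of spectrin tetramers beneath the lipid bilayer. Ankyrin ties this mesh to the anion exchanger band 3, with protein 4.2 bound to both, and at the nodes of the mesh protein 4.1, adducin, dematin and tropomodulin hold spectrin to short actin filaments. Loss of spectrin, ankyrin, band 3, protein 4.2 or protein 4.1 gives fragile, round or elliptical red cells and haemolytic anaemia in humans and mice. The erythroid forms of these proteins are made in quantity by maturing red cell precursors, which come after the LSK stage, and some of the genes, such as Add1, are also used in many other tissues. In mammals 5mC sits mostly at CG dinucleotides, promoters with many CG are usually free of it, and TET enzymes oxidise it to 5hmC, which is commonly found in the bodies of active genes.

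Series-wide facts bear on all values. In Hdac6 itself the authors' deposited table listed 2 5mC and 2 5hmC sites, each with less of the mark in the knockout, at 0 and 4.76% 5mC in the knockout against 100% and 55.6% in wild type, and at 0 and 9.52% 5hmC in the knockout against 63.2% and 55.6% in wild type. These levels do not test the deletion, because its place is not known. The tables hold positions with p under 0.01 and a difference of at least 10 percentage points, and in the authors' deposited table the q-value, the p-value adjusted for the number of positions tested, was 1 at 98.9% of 5mC and 86.6% of 5hmC positions. Read coverage is not stated, so a level of 0 or 100% may rest on few reads and no interval can be given for a single level.

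No listed site lay in the start windows at hand, which did not cover Ank1, Slc4a1 and Dmtn. RefSeq start windows of 300 bases (250 before to 50 after the start, GRCm38.p6) were at hand for 6 of the 9 genes, with 3 alternative starts for Epb41, which makes 8 windows with 137 CG dinucleotides. None of the 8 contained a listed position of either mark. Of all 32851 start windows 1.20% contained a listed 5mC position and 2.22% a listed 5hmC position, so such windows rarely hold a listed site in any gene. The following 3 windows show how different these starts are, each written 5′ to 3′ along the gene with every CG in capitals. The Epb42 window (chr2:121036828-121037127, minus strand) has, with the middle Epb41 start, the fewest CG of the members' windows, and the Epb41 windows (chr4:132075264-132075563 and chr4:132049029-132049328, minus strand) are those with a listed 5hmC site nearest to the start.
Epb42: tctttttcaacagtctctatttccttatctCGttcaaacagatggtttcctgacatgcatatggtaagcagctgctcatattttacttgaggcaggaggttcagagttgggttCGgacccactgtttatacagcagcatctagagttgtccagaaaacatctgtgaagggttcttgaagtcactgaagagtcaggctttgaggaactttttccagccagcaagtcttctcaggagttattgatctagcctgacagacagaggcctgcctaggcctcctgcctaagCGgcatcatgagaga
Epb41 first start: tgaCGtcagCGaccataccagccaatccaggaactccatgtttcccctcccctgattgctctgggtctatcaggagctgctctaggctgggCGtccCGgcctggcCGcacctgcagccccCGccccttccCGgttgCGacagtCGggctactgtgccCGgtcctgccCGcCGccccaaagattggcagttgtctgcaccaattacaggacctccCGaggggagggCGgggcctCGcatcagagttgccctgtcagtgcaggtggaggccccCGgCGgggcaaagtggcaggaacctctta
Epb41 last start: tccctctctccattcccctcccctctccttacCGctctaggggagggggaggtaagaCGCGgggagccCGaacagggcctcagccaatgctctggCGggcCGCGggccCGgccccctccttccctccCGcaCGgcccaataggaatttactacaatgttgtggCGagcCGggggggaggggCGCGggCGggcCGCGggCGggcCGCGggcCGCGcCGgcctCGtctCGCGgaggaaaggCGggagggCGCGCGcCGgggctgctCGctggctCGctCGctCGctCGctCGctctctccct
The Epb42 window has 3 CG, more than 23.3% of all windows, whereas the Epb41 windows have 17 and 37, more than 68.6% and 94.4% of all windows. Epb41 has a middle start with 3 CG, and the other members range from 11 CG in Add2 over 20 in Add1 and 21 in Sptb to 25 in Tmod1. The letters AGATAA, of the type bound by erythroid GATA factors, were searched on both strands and stood in 1 of the 8 windows, that of Epb42, against 11.2% of all windows. The letters CCNCNCCC, a CACCC-box type of sequence also searched on both strands with overlapping matches counted, stood in 6 of the 8, against 49.5% of all windows, and no member window held both motifs.

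Every member held listed sites for both marks, in a total window of 794.4 kb. Over all genes 42.3% contained a position of the 5mC list and 49.6% of the 5hmC list, and over the 13632 genes within the members' range of length these shares were 57.9% and 63.1%. Listed 5mC sites numbered 4.28 per 100 kb in the members and listed 5hmC sites 7.93, where genes of that length range carried 2.48 and 3.89. Above the median density of such genes, 1.63 for 5mC and 2.39 for 5hmC per 100 kb, lay 8 members for 5mC and all 9 for 5hmC. These medians include the genes of that range without a listed site, and genes were not matched to the members by length within it. The densest were Slc4a1, with 14.7 5mC and 19.5 5hmC sites per 100 kb, and Dmtn, with 18.5 5hmC sites per 100 kb. The sparsest was Add1 for 5mC, at 1.60 per 100 kb, and Tmod1 for 5hmC, at 2.47. CG density and coverage of the genes were not available, so their part in these densities was not tested. Because the members were chosen with earlier results of these data known, their counts and densities are described only and do not test for an excess.

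Most member sites had less 5mC in the knockout than in wild type, as it was over the whole table. Among the 34 sites, 13 had more and 21 less in the knockout, so that 38.2% were higher (95% exact binomial interval 22.2 to 56.4%, counting error only), while 40.3% of all listed 5mC sites were higher. The share near the background is not a result about these genes. The direction also rests on sites at the limits of the scale: of the 20 member sites with both levels above 0 and below 100%, 11 were higher (55%, interval 31.5 to 76.9%), against 44.8% of such sites in the whole table. Levels at the member sites had a median of 63.4% in the knockout and 91.2% in wild type, and over all listed sites these medians were 66.7% and 84.3%. Of the authors' levels, per their deposited table, 12 of the 21 lower sites (57.1%) stood at 100% in wild type, against 46.1% of the lower sites in the whole table. No member site stood at 0% in either genotype, and of all listed 5mC sites 2.89% did in the knockout and 1.98% in wild type. Lower sites only were found in Epb42, higher sites only in Add1 and Dmtn, and both kinds in the other 6 genes. All 34 sites had a q of 1 in the authors' deposited table, where 0.175% of listed 5mC sites had q under 0.05.

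**Figure D1:**
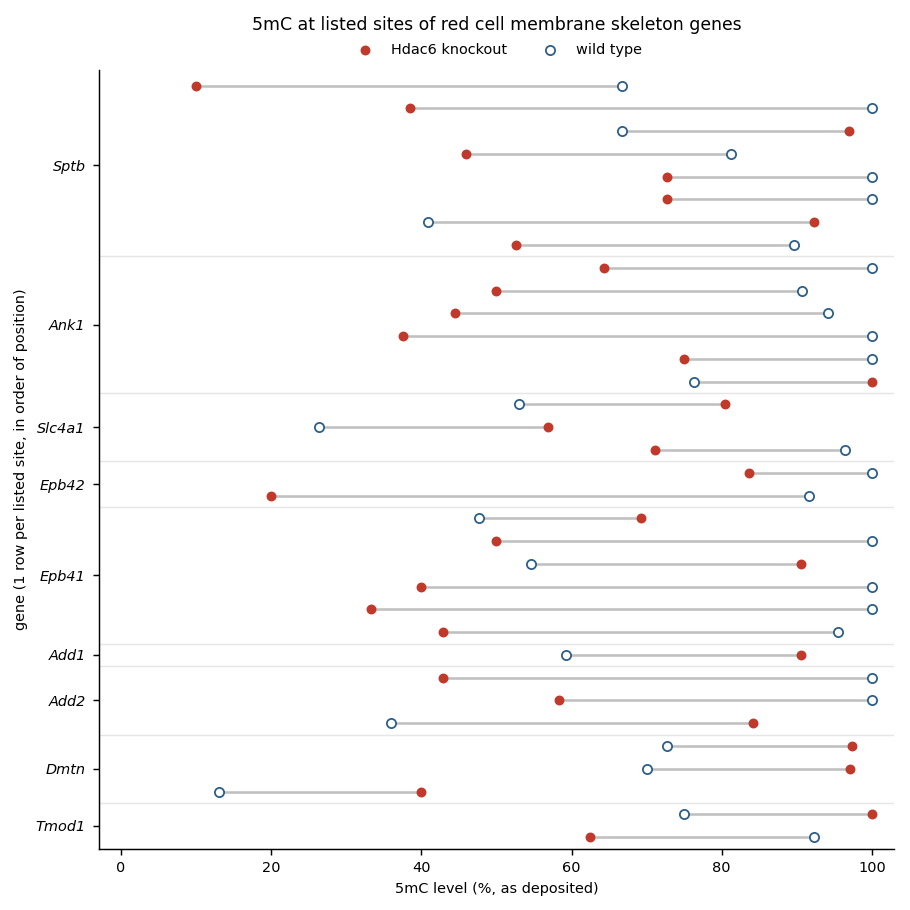
5mC level (percent, horizontal axis) at each of the 34 listed sites, 1 row per site in order of position within each gene; filled red points are the knockout library, open blue points the wild-type library, and grey lines join them. In Ank1 and Epb41 most wild-type points lie above 90%, and in Dmtn all 3 knockout points lie to the right of the wild-type points.

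Most member sites had more 5hmC in the knockout than in wild type, again as over the whole table. Among the 63 sites, 42 had more and 21 less in the knockout, so that 66.7% were higher (95% exact binomial interval 53.7 to 78.0%, counting error only), while 64.4% of all listed 5hmC sites were higher. Median levels were 25% in the knockout and 0% in wild type. At 36 of the 42 higher sites (85.7%, against 81.3% over the whole table) wild type was at exactly 0% in the authors' deposited table, and the knockout lay between 16.7 and 83.3% at the higher sites. At 17 of the 21 lower sites (81.0%, against 84.2% over the whole table) the knockout was at exactly 0%, and wild type lay between 12.3 and 52.4% in the authors' deposited table. At the remaining higher sites wild type was at most 10%, and at the remaining lower sites the knockout was at most 5.13%. No member site was at 100% 5hmC in either genotype. No member site reached q under 0.05 in the authors' deposited table, where 1.08% of listed 5hmC sites did; the smallest was 0.0980, in Sptb.

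**Figure D2:**
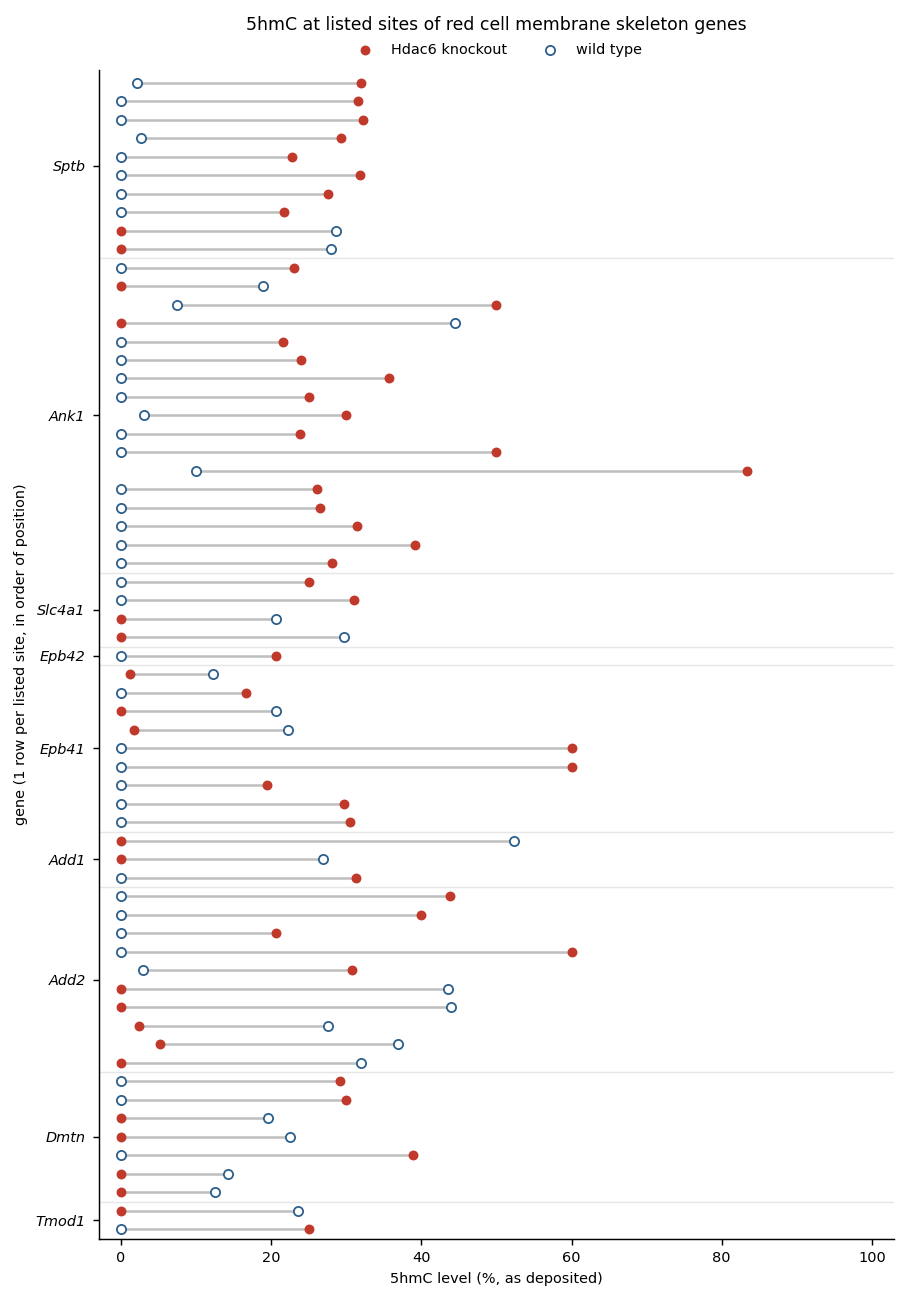
5hmC level (percent, horizontal axis) at each of the 63 listed sites, 1 row per site in order of position within each gene; filled red points are the knockout library, open blue points the wild-type library, and grey lines join them. Most rows have 1 point at 0%, in wild type at the higher and in the knockout at the lower sites, and Ank1 has the site with the largest difference, at 83.3% in the knockout and 10% in wild type.

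Sptb encodes beta-spectrin, the chain that binds ankyrin, and is the gene of the jaundiced mouse. It spans 130.1 kb of chromosome 12 (76580488 to 76710547) and held 8 5mC sites, 2 higher and 6 lower, and 10 5hmC sites, 8 higher and 2 lower. The largest 5mC difference stood at position 76614182, with 38.5% in the knockout and 100% in wild type in the authors' deposited table. The smallest p among its higher 5mC sites belonged to position 76642800, at 97.0% in the knockout and 66.7% in wild type (p = 0.00284, q = 1, the authors' deposited table). A pair of neighbouring cytosines, at 76645944 and 76645946, both had 72.7% 5mC in the knockout and 100% in wild type in the authors' deposited table. The 5hmC at these was 22.7% and 31.8% in the knockout and 0% at both in wild type, per the authors' deposited table. The largest 5hmC difference was at 76592116, with 32.3% in the knockout and 0% in wild type in the authors' deposited table. Among the higher 5hmC sites the smallest p was at 76660157, with 27.5% in the knockout and 0% in wild type (p = 0.000474, the authors' deposited table). Both lower 5hmC sites lay closer to the annotated start of the gene than the higher ones. At 76684937 the authors' deposited table gave 0% 5hmC in the knockout and 28.6% in wild type, with the smallest p of all member sites (p = 1.55e-05, q = 0.0980).

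Ank1 encodes ankyrin-1, the adaptor between beta-spectrin and band 3, which is affected in the normoblastosis mouse and in much of human hereditary spherocytosis. Over its 175.7 kb on chromosome 8 (22974836 to 23150501) it held 6 5mC sites, of which 5 were lower, and 17 5hmC sites, of which 15 were higher, the most of any member. Its share of higher 5hmC sites, 88.2% (95% exact interval 63.6 to 98.5%, counting error only), was reached or exceeded by 5.29% of the 869 genes with at least 10 5hmC sites, whose median share was 61.1%. The other members with as many 5hmC sites were Sptb, whose share of 80% was reached or exceeded by 13.2% of those genes, and Add2, whose share of 50% was reached or exceeded by 76.9%. For 5mC the share in Ank1 of higher sites was 16.7%, and 12.8% of the 1502 genes with at least 5 5mC sites had a share as low or lower; for the 25% of Sptb and the 33.3% of Epb41 these were 23.9% and 37.8% of genes. Because the members were chosen with earlier results of these data known, these ranks are described only and do not test for an excess. Without Ank1 the other members had 27 of 46 5hmC sites higher, or 58.7%. At position 23080556, inside the gene, 5hmC was 83.3% in the knockout and 10% in wild type (p = 0.00762, the authors' deposited table). The smallest p among the higher sites was at 23122051, with 31.4% in the knockout and 0% in wild type (p = 0.000527, q = 0.857, the authors' deposited table). A pair at 23035073 and 23035184, inside the long non-coding gene Gm51563 as well, had 25% and 30% 5hmC in the knockout against 0% and 3.03% in wild type in the authors' deposited table. Both lower sites lay within 8 kb of the lower end, and the one with the smaller p, at 22982722, had 0% in the knockout and 44.4% in wild type in the authors' deposited table. 5mC lay furthest below wild type at 23074201, with 37.5% in the knockout and 100% in wild type (p = 0.000472, q = 1, the authors' deposited table). The only higher 5mC site, at 23116701, had 100% in the knockout and 76.3% in wild type (p = 0.000285, q = 1, the authors' deposited table).

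Slc4a1 encodes band 3, the chloride-bicarbonate exchanger that anchors the mesh. It is the shortest member, with 16.5 kb on chromosome 11 (102348820 to 102365281), and held 3 5mC and 4 5hmC sites. In its middle, 2 5mC sites were higher, with 80.4% in the knockout against 52.9% in wild type at 102356836 and 56.8% in the knockout against 26.4% in wild type at 102357117 in the authors' deposited table. Just beyond them 2 5hmC sites were higher as well, at 25% in the knockout at 102357977 and 31.0% at 102358547, both at 0% in wild type in the authors' deposited table. Towards the upper end the order turned. There 5hmC was 0% in the knockout at 102362168 and 102365082, against 20.7% and 29.6% in wild type in the authors' deposited table. The 5mC site 105 bp past the upper end, at 102365386, had 71.0% in the knockout and 96.4% in wild type in the authors' deposited table. The strand of Slc4a1 was not at hand, so whether its upper end is its start was not determined.

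Epb42 encodes protein 4.2, which binds band 3 and ankyrin. It lies on chromosome 2 (121017891 to 121036877) and held 2 5mC sites, both lower, and 1 5hmC site, which was higher. The site at 121032077 had the largest 5mC difference of all members, with 20% in the knockout and 91.7% in wild type. Its p was just under the listing limit of 0.01 (p = 0.00986, the authors' deposited table). At 121030619 the knockout had 83.7% and wild type 100% 5mC, per the authors' deposited table. 5hmC at 121023245 was 20.7% in the knockout and 0% in wild type in the authors' deposited table. The 2 lower 5mC sites lie in a stretch of 6 Mb, picked out after its values were seen, in which the other 314 listed 5mC sites were higher in 10.8% of cases, so the direction is not particular to Epb42.

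Epb41 encodes protein 4.1R, which strengthens the contact of spectrin with actin. Its 151.9 kb on chromosome 4 (131923413 to 132075346) held 6 5mC sites, 2 higher and 4 lower, and 9 5hmC sites, 6 higher and 3 lower. The largest 5mC difference was at 132032884, with 33.3% in the knockout and 100% in wild type in the authors' deposited table, and 5hmC at that position was 60% in the knockout and 0% in wild type. Position 132004549 likewise had 60% 5hmC in the knockout and 0% in wild type in the authors' deposited table. Its higher 5mC site with the smallest p, at 131983429, had 90.6% in the knockout and 54.5% in wild type in the authors' deposited table. Below the lower end, within 280 bp, lay the group with the most member sites, 4 5hmC positions that are also inside Tmem200b. The authors' deposited table gave 1.22%, 16.7%, 0% and 1.69% 5hmC there in the knockout, against 12.3%, 0%, 20.7% and 22.2% in wild type, so 3 were lower and 1 was higher. Position 131922326 among them had the smallest p of this gene (p = 9.40e-05, q = 0.348, the authors' deposited table), and 5mC at it was 69.2% in the knockout and 47.7% in wild type. The other 5 5hmC sites of Epb41 were all higher. Over all members, 8 5hmC sites lie inside another gene as well, and of the 55 that do not, 39 were higher (70.9%). Among the other Epb41 sites, position 132075964, 651 bp before the first annotated start shown above, had 30.4% in the knockout and 0% in wild type in the authors' deposited table. Position 132048163, 915 bp after the last start, had 19.4% in the knockout and 0% in wild type in the authors' deposited table.

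Add1 and Add2 encode alpha- and beta-adducin, which cap actin filaments and recruit spectrin to them; Add1 is widely expressed, Add2 mainly in erythroid cells and brain. Add1, on chromosome 5 (34573664 to 34632308), had 1 5mC site, at 34590115, with 90.6% in the knockout and 59.3% in wild type in the authors' deposited table. 5hmC at that position was 0% in the knockout and 26.9% in wild type in the authors' deposited table. At 34575381, 1717 bp after the annotated start, it was 0% in the knockout and 52.4% in wild type, the highest wild-type 5hmC level of any member site (p = 0.000165, q = 0.485, the authors' deposited table). The other Add1 5hmC site, 34624691, had 31.2% in the knockout and 0% in wild type in the authors' deposited table.

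In Add2, on chromosome 6 (86028681 to 86124409), the listed higher and lower 5hmC sites lay in separate stretches. Its 5 higher 5hmC sites all lay between 86052660 and 86075748, and its 5 lower ones between 86098593 and 86124536. Some of them form the close pairs given next, 70, 11 and 32 bp apart, which are not independent, and the split was not tested. At 86052660 and 86052730 the knockout had 43.8% and 40% 5hmC and wild type 0% at both, and at 86070185 the knockout had 60% and wild type 0%, per the authors' deposited table. At 86098593 and 86098604 the knockout was at 0% and wild type at 43.5% and 44.0% in the authors' deposited table. At 86102096 and 86102128 the knockout had 2.44% and 5.13%, against 27.6% and 36.8% in wild type in the authors' deposited table. The 5mC sites were lower at 86027110, 1571 bp before the annotated start, with 42.9% in the knockout against 100% in wild type, and at 86067687, with 58.3% in the knockout against 100% in wild type, per the authors' deposited table. Past the upper end, at 86124536, 5mC was 84.2% in the knockout and 36.0% in wild type, and 5hmC was 0% in the knockout and 32.0% in wild type in the authors' deposited table.

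Dmtn encodes dematin, an actin-bundling protein of the nodes. On chromosome 14 (70602184 to 70636048) it held 3 5mC sites, all higher, and 7 5hmC sites, 3 higher and 4 lower. About 2 kb inside the lower end, positions 70604349 and 70604372 had 97.3% and 97.1% 5mC in the knockout against 72.7% and 70.0% in wild type in the authors' deposited table. Beyond the upper end, at 70636851, which is also inside Fgf17 and Gm38605, 5mC was 40% in the knockout and 13.0% in wild type, the lowest wild-type 5mC level of any member site, per the authors' deposited table. The largest 5hmC difference was at 70635161, with 38.9% in the knockout and 0% in wild type in the authors' deposited table. A pair at 70622667 and 70622706 had 29.2% and 30% 5hmC in the knockout and 0% at both in wild type in the authors' deposited table. The lower 5hmC sites were at 0% in the knockout throughout, with wild type at 19.5%, 22.5%, 14.3% and 12.5% in order of position in the authors' deposited table. Tmod1 encodes tropomodulin-1, which caps the slow-growing end of actin, and lies on chromosome 4 (46038940 to 46116032). Its 5mC sites differed in direction, with 100% in the knockout against 75% in wild type at 46046885 and 62.5% in the knockout against 92.3% in wild type at 46100797 in the authors' deposited table. Its 2 5hmC sites lie 177 bp apart and also differed in direction. The knockout had 0% at 46095456 and 25% at 46095633, against 23.5% and 0% in wild type in the authors' deposited table.

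**Figure D3:**
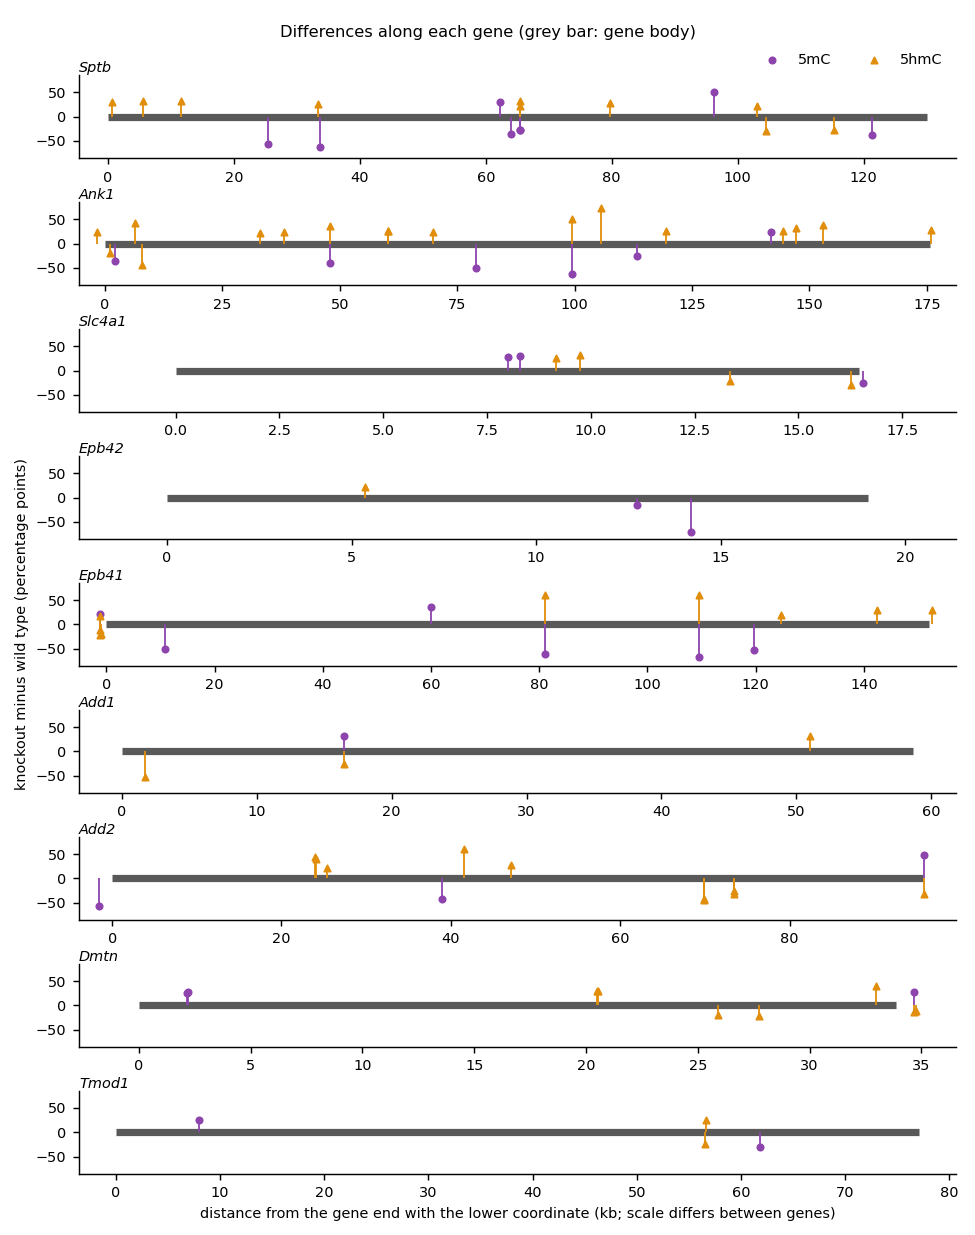
Difference of knockout minus wild type in percentage points (vertical axis) against the distance in kb from the gene end with the lower coordinate (horizontal axis, scaled to each gene); grey bars are gene bodies, purple circles 5mC and orange triangles 5hmC. In Add2 the 5 triangles above 0 and the 5 below 0 stand in separate stretches, and in Ank1 15 of 17 triangles are above 0.

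**Figure D4:**
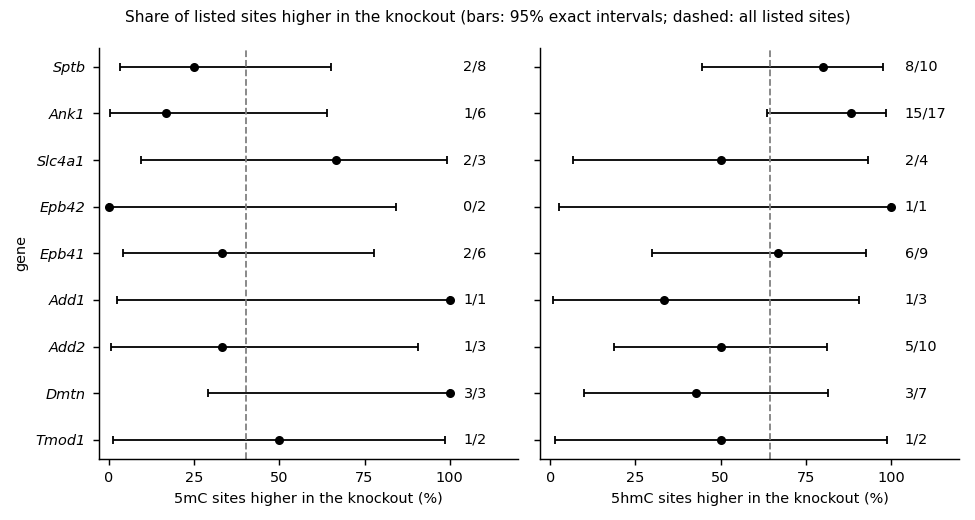
Share of listed sites higher in the knockout (percent, horizontal axis) for each gene, for 5mC on the left and 5hmC on the right; bars are 95% exact binomial intervals that cover counting error only, numbers give higher sites over all sites, and dashed lines mark all listed sites at 40.3% and 64.4%. All 18 intervals include the share of the whole table; the lower bound of Ank1 in 5hmC, 63.6%, comes nearest to its line.

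Gene ends and gene interiors were looked at apart for 5hmC. Within 2 kb of either end, 6 of 15 member sites were higher (40%, 95% exact interval 16.3 to 67.7%), and deeper inside 36 of 48 were (75%, interval 60.4 to 86.4%). The intervals overlap and the difference was not tested. Over all genes these shares were 59.6% and 63.5%. There a site counted as near an end if it lay within 2 kb of an end of any gene. For the members only the ends of the member itself counted, so the measures are not quite alike. Of the 9 lower end sites 3 are in the Epb41 group inside Tmem200b and 2 in the Dmtn pair inside Fgf17, and neighbouring sites are not independent. For 5mC only 5 member sites lay near an end, 3 of them higher (60%), and 10 of 29 deeper ones were higher (34.5%). Over all genes, with the ends of any gene counted, the 5mC shares were 48.0% near an end and 39.8% deeper inside. Of 9 groups of 5hmC sites within 500 bp of each other 7 had a common direction, against 65.9% of such groups over the whole table. All 3 such groups of 5mC sites did, against 77.2% over the whole table.

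A total of 10 member positions were listed for both marks. An estimate of 5hmC from oxidative bisulfite data is a difference that involves the 5mC measurement. The library behind each deposited level is not stated. Opposite differences at such positions may therefore be fixed by the arithmetic and are given side by side only. If a level called 5mC also includes 5hmC, the sums below count 5hmC more than once. Whether the libraries of both marks came from the same animals is not stated, so a sum may join levels of different animals. In Ank1, position 23022680 had 50% 5mC and 35.7% 5hmC in the knockout against 90.7% and 0% in wild type in the authors' deposited table. Position 23074201 had 37.5% 5mC and 50% 5hmC in the knockout against 100% and 0% in wild type, per the authors' deposited table. The sum of both levels was thus 85.7% and 87.5% in the knockout and 90.7% and 100% in wild type. In Epb41 the sums at 132004549 were 100% in both genotypes, with 40% 5mC and 60% 5hmC in the knockout and 100% 5mC in wild type, per the authors' deposited table. At 131922326 the sums were 69.2% in the knockout and 68.4% in wild type, and at 132032884 they were 93.3% in the knockout and 100% in wild type. The sums at Add1, 90.6% in the knockout and 86.2% in wild type, were also close. The widest gap was at Add2, with 84.2% in the knockout and 68.0% in wild type, followed by Dmtn with 40% in the knockout and 27.3% in wild type. At Sptb 76645946 the knockout sum was 104.5%, above the 100% that parts of 1 whole could reach. Over the 12608 positions shared in the series the sum was at most 100% in the knockout at 94.1% and in wild type at 97.2%.

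**Figure D5:**
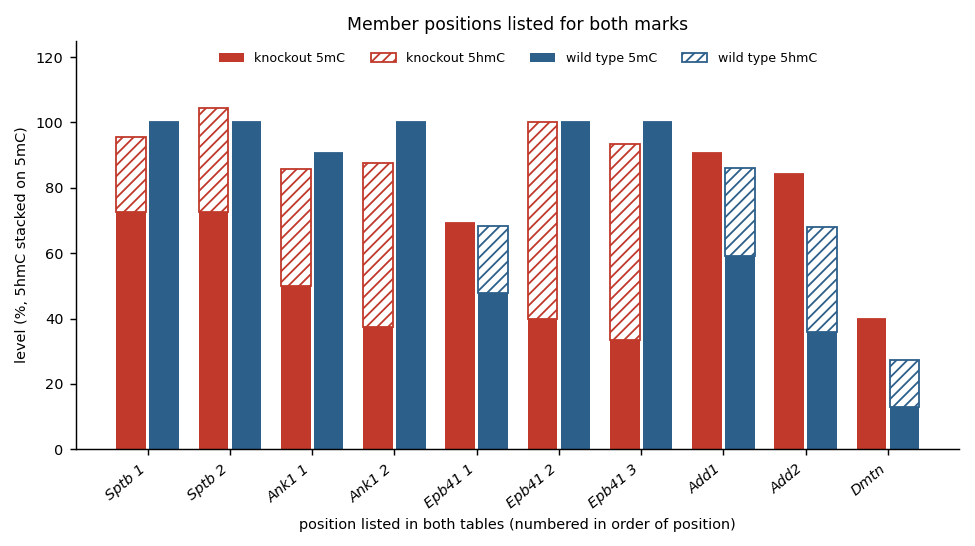
5mC (solid) with 5hmC stacked on it (hatched), in percent, at the 10 member positions listed in both tables; red bars are the knockout and blue bars the wild-type library, and positions of a gene are numbered in order. In Sptb, Ank1 and the last 2 Epb41 positions the hatched part is in the knockout bar, and in the first Epb41 position, Add1, Add2 and Dmtn it is in the wild-type bar.

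All 9 members contained listed positions of each mark. Of 21 other genes of the red cell membrane 11 contained a listed 5mC position and 15 a listed 5hmC position. Over all genes these shares were 42.3% and 49.6%, and over genes within the members' range of length 57.9% and 63.1%. The members are longer, with a median length of 77.1 kb against 28.3 kb for the other genes. Density was 4.28 5mC and 7.93 5hmC sites per 100 kb in the members, against 3.20 5mC and 6.05 5hmC sites per 100 kb in the other genes. The share of higher sites was 38.2% for 5mC and 66.7% for 5hmC in the members, against 44.4% for 5mC and 56.9% for 5hmC in the other genes. The most sites stood in Piezo1, a mechanically gated channel gene with 7 higher and 7 lower 5hmC sites, which at 122519979 had 46.7% 5hmC in the knockout and 0% in wild type in the authors' deposited table. Tpm1, a tropomyosin gene with 4 higher and 4 lower 5hmC sites, had 57.1% 5hmC in the knockout and 0% in wild type at 67039409 in the authors' deposited table. Cd47, the gene of an integrin-associated protein of the band 3 complex, had 37.5% 5mC in the knockout and 94.1% in wild type at 49868750 in the authors' deposited table, and 5hmC at that position was 62.5% in the knockout and 5.88% in wild type. Rhd, the gene of a Rh blood group protein, chosen for mention after its values were seen, had 2 5hmC sites, both lower. At 134884121 5hmC was 0% in the knockout and 34.4% in wild type in the authors' deposited table. Its 5mC sites went both ways, 3 higher and 2 lower. Gypc, with 2 5hmC sites, and Stom, with 1, also had lower 5hmC sites only. Xk, chosen in the same way, had the only site of these genes with q under 0.05 (43.2% 5mC in the knockout and 96.7% in wild type, q = 0.0461, the authors' deposited table), and it lies on chromosome X near Hdac6.

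The 14 paralogs that serve mainly outside red cells all held sites of both marks, as the members did. Over all genes 42.3% held a listed 5mC site and 49.6% a listed 5hmC site. The density in the paralogs was 3.36 5mC and 3.77 5hmC sites per 100 kb. In the paralogs 40.3% of 5mC and 55.6% of 5hmC sites were higher. Ank3, the gene of ankyrin-G, had 16.7% 5mC in the knockout and 90.0% in wild type at 69983765 in the authors' deposited table. Sptbn4, the gene of beta-IV spectrin, had 35.7% 5mC in the knockout and 91.3% in wild type at 27400860, per the authors' deposited table. Epb41l1, the gene of a neuronal protein 4.1, had 87.5% 5mC in the knockout and 16.7% in wild type at 156423037 in the authors' deposited table. Differences between the members and these lists were not tested.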

How the data were processed

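Per the labels' protocols, LSK DNA was mixed with lambda DNA, sonicated, ligated to methylated adapters, bisulfite-converted and sequenced on an Illumina instrument. For the aligner, methylation caller, test and coverage filter, names and settings were not given in the sources used here. Per the file headers, each deposited position has a wild-type and a knockout level as a fraction (printed as percent), their signed difference, and a p-value and q-value of the authors' own comparison. Each listed entry was a single position, and its difference equalled knockout minus wild type within 0.01 points. No column of other samples was present.

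The submitters' processing notes name GRCm39, but the positions were read as GRCm38: listed chromosome 1 positions reach 195335568, past the end of that chromosome in GRCm39, and all 443 5mC and 843 5hmC sites inside RefSeq GRCm38.p6 start windows fell on the C of a CG. Genes came from a RefSeq table (GRCm38.p6; autosomes, X and Y); exons were not used here, and strand was taken from the start windows.

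Python 3.11.15, pandas 2.3.3, scipy 1.17.1 and matplotlib 3.10.9 were used. The assignment of sites to genes was tested on simulated positions. No test of genotypes was made; intervals are exact binomial (95%). Members and lists were chosen with earlier results of these data known. For each gene and mark, the largest difference, the smallest p in each direction and all positions listed for both marks were named. So were all sites of genes with 5 or fewer, groups within 500 bp and, where the strand was known, sites near a start. Alternatives changed the flank, p, difference, merging of neighbours, levels of 0 or 100% and members.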

Additional observations from a re-analysis of the deposited data

How the results depend on the processing

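No paired analysis was possible because each genotype has 1 library per mark. The labels' numbers 1 and 2 coincide with the marks, and what they denote is not stated. With p under 0.001 in the authors' deposited table, 4 5mC sites in 2 members (Ank1 and Sptb) and 16 5hmC sites were left. With both levels above 0 and below 100%, 20 5mC and 10 5hmC sites were left. Of these, 55% of 5mC and 60% of 5hmC sites were higher in the knockout. Over all listed sites the shares were then 44.8% and 68.1%. The more frequent direction of member 5mC sites thus turned. A site at 100% in wild type can only be lower, so this shift is partly built into the filter. Gene bodies alone, a flank of 5 kb, a difference of at least 25 points and merged neighbours kept the numbers of sites within 1.5 times those reported, with 33.3 to 37.8% of 5mC and 63.2 to 74.4% of 5hmC sites higher. Leaving out each member in turn gave 32.3 to 42.9% of 5mC sites and 58.7 to 69.8% of 5hmC sites higher, the last lowest without Ank1. Coverage of the positions, and cytosines outside the lists, were not analysed here, so sites cannot be weighted by depth and no rate per tested cytosine can be given.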
